A study of Homo sapiens with 4 samples.

Results

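RNA polymerase III (Pol III) genes of small noncoding RNAs were examined for TRIM24 and TRIM28 signal. The group held 10 genes of the 64440 annotated on chromosomes 1 to 22, X and Y. They were RN7SK, RMRP, RPPH1, RN7SL1, RN7SL2, VTRNA1-1, VTRNA1-2, VTRNA1-3, RNY1 and RNY3. They were listed by name, but with earlier results of these data known. A binding site was assigned to a gene when its centre lay within 1 kb of the gene. The question was whether such genes collect signal in every library.

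ChIP-seq was performed in LNCaP, a line of human prostate cancer cells that respond to androgen, with the genotype labelled WT. All cells were kept in 5% charcoal-stripped serum, which is depleted of steroid hormones, for 3 days and then received ethanol or 10 nM of the synthetic androgen R1881 for 16 h. TRIM24 was pulled down by an HA tag from cells stably expressing HA-TRIM24, which leaves untagged TRIM24 unread, and TRIM28 by an antibody against TRIM28 itself. The labels give untagged LNCaP cells for TRIM28, whereas the study's own account gives HA-TRIM24 cells for both proteins. Each of the 4 groups (TRIM24 ethanol, TRIM24 R1881, TRIM28 ethanol and TRIM28 R1881) held 1 library, so there was no replicate check and no test between conditions. Every interval given here is a 95% interval, and those of tag counts and ratios cover counting error only.

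The 4 lists held 5232 sites (TRIM24 ethanol), 9363 (TRIM24 R1881), 58201 (TRIM28 ethanol) and 34574 (TRIM28 R1881). Depth ranged from 11606880 to 25145171 tags, highest in TRIM28 ethanol. Strength is given as normalized tags, the tags at a site scaled to 10000000 tags per library. Within a list all sites had the same length, between 155 and 165 bp, so that levels could be set side by side between genes. No input library entered the site calls. The antibodies differed between the proteins, so that a difference in binding and one in pull-down cannot be told apart, and neither can more bound cells and more protein per cell. The lists hold no expression values, so neither the cell line label nor the transcription of these genes was measured here.

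Pol III transcribes short, abundant RNAs that are not translated. At some of its genes the promoter lies inside the transcribed part, as A and B boxes that are read by TFIIIC. At others, such as the genes of 7SK, RMRP, RNase P and Y RNAs, it lies before the start, as a TATA box and a proximal element read by SNAPc. TRIM24 and TRIM28 are related chromatin proteins with bromodomains, and TRIM28 is best known as the corepressor of KRAB zinc finger proteins.

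Promoter letters were read from the GRCh37 genome, since the members belong to both promoter kinds. The 30 bases around a motif are shown for the vault RNA genes, which have the B box inside the gene, and for RN7SK and RMRP, which have a TATA box before the start. Capitals mark the motif, and each sequence runs 5′ to 3′ on the strand of the gene.
VTRNA1-1, chr5:140090916-140090945, plus strand: tgtctgggttGTTCGAGACccgcgggcgct
VTRNA1-2, chr5:140098556-140098585, plus strand: tctctgggtgGTTCGAGACccgcgggtgct
VTRNA1-3, chr5:140105789-140105818, plus strand: tctctgggttGTTCGAGACccgcgggcgct
RN7SK, chr6:52860374-52860403, plus strand: acttccttcaggTTTATAtagcttgtgcgc
RMRP, chr9:35658030-35658059, minus strand: tttctttagggcTATAAAatactactctgt

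The B box core (GTTCGANNC, either strand) began 66, 56 and 56 bases after the start of VTRNA1-1, VTRNA1-2 and VTRNA1-3. It was found in no other member between 250 bases before and 100 after the start, and 1.7% of all genes held it there. In the shorter window that ends 50 bases after the start it was found in 0 members and 1.52% of genes. TATAAA was found in 3 members (RN7SK on the opposite strand, RMRP, and RNY3 on the opposite strand and farther out) and in 18.8% of all genes. The octamer ATTTGCAT was found in RMRP, RPPH1 and RNY3, against 2.99% of all genes, the A box core TGGCNNAGT in RN7SL1 against 4.29%, and the E box CACGTG in 0 members against 6.25%. These matches describe the letters of the windows and were not tied to any factor.

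The 7SL genes are near copies of each other. They differed at 4 of 297 bases. Reads inside the 7SL genes can therefore align to both, and how the aligner divided them is not given in the sources used here. The vault RNA genes shared 81.8% to 87.8% of aligned bases, and RNY1 and RNY3 shared 72.6%. How far reads at the members also match pseudogene copies was not measured.

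The members collected signal in nearly every library. A site lay within 1 kb of 10 of 10 members in TRIM24 ethanol, 10 in TRIM24 R1881, 10 in TRIM28 ethanol and 9 in TRIM28 R1881. Of all annotated genes, 6.9%, 11.8%, 35.6% and 26.2% had a site in these libraries. Of the 8990 annotated small RNA genes, a set by biotype that includes ribosomal RNA pseudogenes, 1.56%, 2.17%, 6.27% and 4.22% had one. The named Pol III and Pol II small RNA genes given below had larger shares. A site in all 4 lists was present at 9 of 10 members and at 3.73% of annotated genes. The exception was RNY1, which had no TRIM28 R1881 site. RN7SK, RMRP and RPPH1 also lie within 1 kb of a protein-coding start, and signal of the neighbouring gene was not separated there.

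Nearly all of the strongest sites lay on the genes themselves. Of the 39 strongest sites, 38 overlapped the gene by at least 1 bp, and their centres lay between positions -92 and 225 bp from the start. The further sites within 1 kb, at RN7SK, RPPH1, RN7SL2 and RNY1, did not overlap the gene and were centred at positions -573 to 603 bp. Among the strongest sites the TRIM24 centres were all after the start, 36 to 178 bp in ethanol and 24 to 134 bp in R1881. The TRIM28 centres fell on both sides of it, with 4 of 10 before the start in ethanol and 3 of 9 in R1881.

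**Figure D1:**
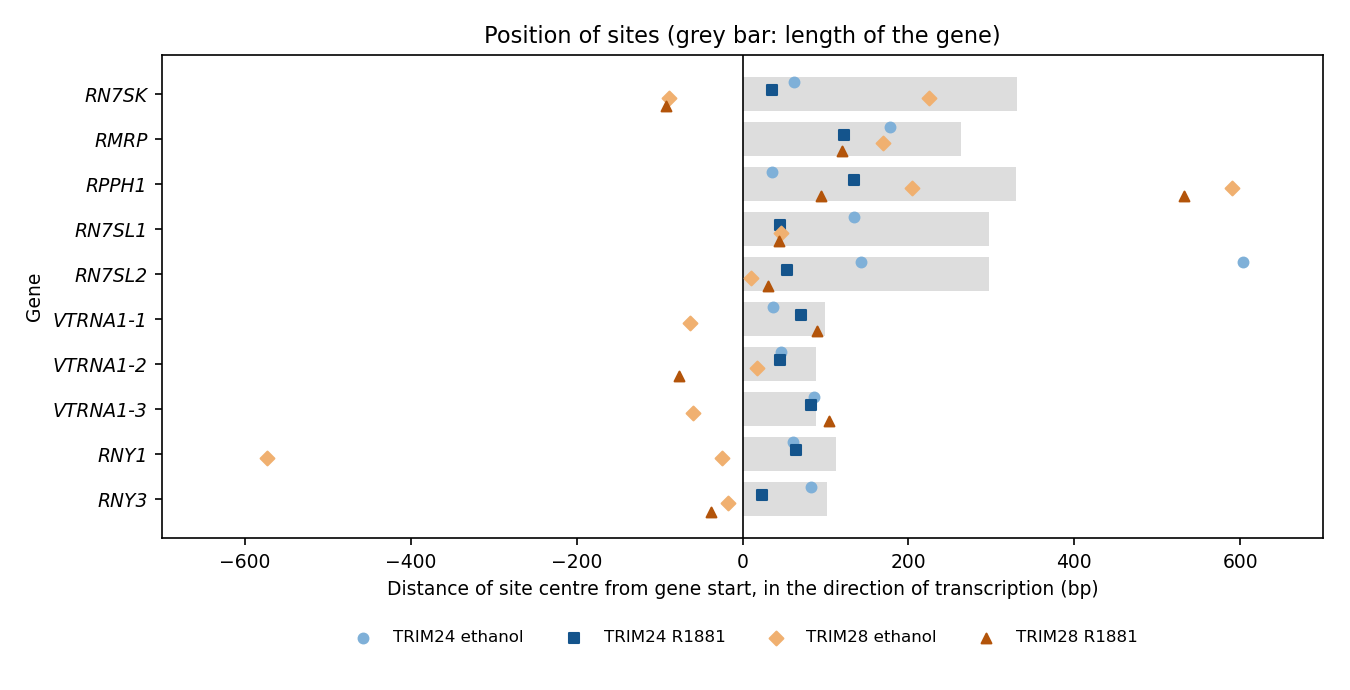
Distance in bp of each site centre from the start of the gene, in the direction of transcription, for all sites within 1 kb of the 10 genes. Markers stand for the 4 libraries and grey bars for the length of the gene. The TRIM24 centres lie at or after the start, and some TRIM28 centres lie before it.

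TRIM24 sites at the members were strong, in particular after R1881. The median of the strongest site per member was 26.7 normalized tags in TRIM24 ethanol and 53.15 in TRIM24 R1881, against 10.3 and 9.3 over all sites of these lists. In TRIM28 it was 10.9 in ethanol and 14.1 in R1881, against 6.4 and 7.7. Relative to the list median the members stood 2.59-fold higher in TRIM24 ethanol, 5.72-fold in TRIM24 R1881, 1.7-fold in TRIM28 ethanol and 1.83-fold in TRIM28 R1881. The median member ranked at the percentile 87.5, 95.7, 90.6 and 93.6 of its list in the same order. Sites at the starts of protein-coding genes had medians of 9.5, 8.5, 6.8 and 7.7 normalized tags.

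**Figure D2:**
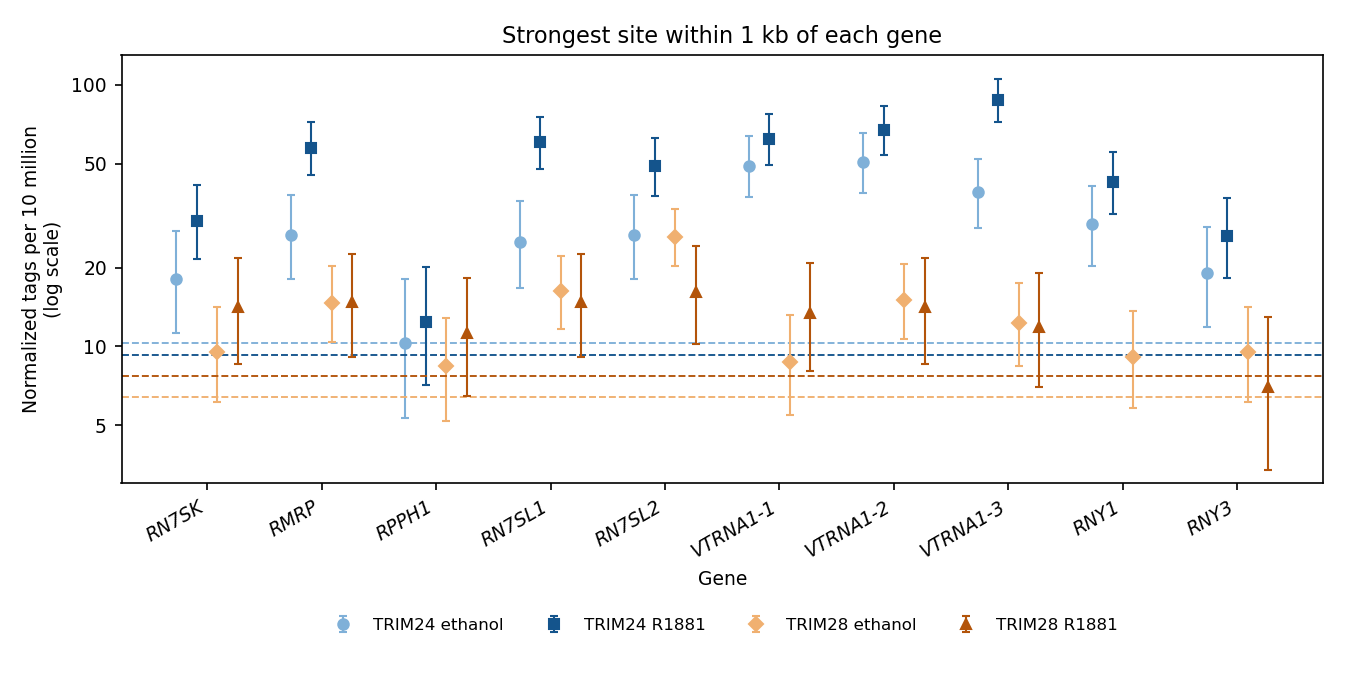
Normalized tags per 10000000 tags (log scale) of the strongest site within 1 kb of each of the 10 genes in the 4 libraries, with exact Poisson 95% intervals. Dashed lines give the median of all sites in the library of the same colour. TRIM24 R1881 is the highest value at every gene, from 12.4 at RPPH1 to 87.7 at VTRNA1-3.

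The vault RNA genes, whose products are bound in vault particles, carried the strongest TRIM24 sites of the group. They lie in tandem on chromosome 5, VTRNA1-1 at chr5:140090860-140090958, VTRNA1-2 at chr5:140098510-140098598 and VTRNA1-3 at chr5:140105743-140105831, all on the plus strand and within an unnamed noncoding gene. VTRNA1-1 had 49.1 normalized tags in TRIM24 ethanol, 62.1 in TRIM24 R1881, 8.7 in TRIM28 ethanol and 13.4 in TRIM28 R1881. VTRNA1-2 had 50.8, 67.5, 15.1 and 14.1 in the same order. At both genes the TRIM24 values lay above the TRIM28 values with intervals that did not overlap.

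VTRNA1-3 had 38.8 normalized tags in TRIM24 ethanol (28.3 to 51.9) and 87.7 in TRIM24 R1881 (72.3 to 105.0). In TRIM28 it had 12.3 (8.38 to 17.5) and 11.9 (6.96 to 19.1). The TRIM24 R1881 value was the highest of all members in any library. Against the surrounding 10 kb the tag density of that site was 86.4-fold higher, which ranked it 15 of 9363 sites. Over the 3 vault RNA genes the TRIM24 R1881 sites lay at the percentiles 96.5 to 97.8 of the list by normalized tags, and the TRIM28 R1881 sites at 89.5 to 93.6.

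The 7SL genes encode the RNA scaffold of the signal recognition particle. RN7SL1 lay at chr14:50053298-50053594 on the plus strand, within the span of the ribosomal protein gene RPS29, and RN7SL2 at chr14:50329271-50329567 on the minus strand, within an unnamed gene. RN7SL1 had 25.0 normalized tags in TRIM24 ethanol, 60.5 in TRIM24 R1881, 16.3 in TRIM28 ethanol and 14.8 in TRIM28 R1881. RN7SL2 had 26.7, 48.9, 26.2 and 16.2. These were the strongest TRIM28 ethanol sites of the group, at the percentiles 97.4 (RN7SL1) and 99.1 (RN7SL2) of that list. The interval of RN7SL1 (11.7 to 22.1) overlapped that of VTRNA1-2 (10.7 to 20.7). A second TRIM24 ethanol site, also of 26.7 normalized tags, had its centre 603 bp after the start of RN7SL2.

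RMRP, the RNA of the ribonuclease MRP that cuts precursor ribosomal RNA, lay at chr9:35657751-35658014 on the minus strand. It had 26.7 normalized tags in TRIM24 ethanol (18.1 to 37.9), 57.4 in TRIM24 R1881 (45.1 to 72.1), 14.7 in TRIM28 ethanol (10.4 to 20.3) and 14.8 in TRIM28 R1881 (9.13 to 22.6). The TRIM28 values were nearly equal, and the TRIM24 intervals of ethanol and R1881 did not overlap. The start of CCDC107 lay 273 bp away.

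RPPH1, the RNA of RNase P that matures the 5′ ends of tRNAs, was the weakest TRIM24 member. It was placed at chr14:20811241-20811570 on the minus strand, next to PARP2, whose start lay 204 bp away. Its values were 10.3 normalized tags in TRIM24 ethanol, 12.4 in TRIM24 R1881, 8.4 in TRIM28 ethanol and 11.2 in TRIM28 R1881. All 4 intervals overlapped, from 5.34 to 18.1 in TRIM24 ethanol and from 7.1 to 20.2 in TRIM24 R1881. The TRIM24 ethanol site equalled the median of its list.

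RN7SK encodes the 7SK RNA, which holds the elongation factor P-TEFb inactive. The gene lay at chr6:52860418-52860748 on the plus strand, with the start of GSTA4 316 bp away. It had 18.1 normalized tags in TRIM24 ethanol, 30.3 in TRIM24 R1881, 9.5 in TRIM28 ethanol and 14.1 in TRIM28 R1881. The TRIM24 sites were centred 62 and 35 bp after the start. The TRIM28 R1881 site was centred at -92 bp and did not reach the gene. TRIM28 ethanol had a site on each side, of 8.0 normalized tags before the start and 9.5 after it.

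The Y RNA genes encode RNAs bound by the Ro60 protein. RNY1 (chr7:148684228-148684340, minus strand) and RNY3 (chr7:148680847-148680948, plus strand) are neighbours. RNY1 had 29.3 normalized tags in TRIM24 ethanol, 42.7 in TRIM24 R1881 and 9.1 in TRIM28 ethanol. The nearest TRIM28 R1881 site was that of RNY3, 3531 bp away. A gene without a listed site missed a criterion of the caller, so no fold was computed for it. RNY3 had 19.0, 26.4, 9.5 and 7.0 normalized tags in the 4 libraries. Its TRIM28 R1881 site rested on 10 tags and lay at the percentile 43.1 of the list, which made it the only strongest site of a member below its list median.

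In the order of strength in TRIM24 R1881, the vault RNA genes came first, followed by RN7SL1, RMRP, RN7SL2, RNY1, RN7SK, RNY3 and RPPH1. The intervals of all 9 pairs of neighbours in that order overlapped, and the highest value exceeded the lowest 7.07-fold with intervals apart. In TRIM24 ethanol and TRIM28 ethanol, each in its own order, the intervals of all neighbours overlapped too. The highest exceeded the lowest 4.93-fold in TRIM24 ethanol and 3.12-fold in TRIM28 ethanol, also with intervals apart. In TRIM28 R1881 it was 2.31-fold and the intervals overlapped, so that no order of the members could be read there.

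With R1881, TRIM24 signal was higher at every member. The normalized tags were higher at 10 of 10 members, with a median log2 ratio of 0.64 and a range of 0.27 (RPPH1) to 1.28 (RN7SL1). The log2 ratio was 1.28 (0.64 to 1.94) at RN7SL1, 1.18 (0.67 to 1.71) at VTRNA1-3, 1.1 (0.48 to 1.76) at RMRP and 0.87 (0.23 to 1.54) at RN7SL2, and these 4 intervals lay above 0. At the other 6 members the interval included 0. A ratio of at least 1.5-fold was seen at 5 of 10 members, these 4 and RN7SK, compared with 14.8% of the 2488 site pairs that overlapped between the TRIM24 lists. The median log2 ratio over those pairs was -0.03. Since these are 2 libraries, the ratio compares the libraries and not the conditions. RN7SL1 and RN7SL2, near copies of each other, are both among the 4 and the 5, and their ratios may not be independent.

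TRIM28 signal did not move in one direction. It was higher with R1881 at 4 of the 9 members with both sites and lower at 5, with a median log2 ratio of -0.05 and no interval above or below 0. The ratios ran from -0.69 (-1.45 to 0.0) at RN7SL2 to 0.62 (-0.36 to 1.56) at VTRNA1-1. A ratio of at least 1.5-fold was seen at 1 of 9 members, VTRNA1-1, compared with 13% of 21637 overlapping pairs, whose median log2 ratio was 0.08. The TRIM28 sites of RN7SK and VTRNA1-3 did not overlap between the libraries.

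**Figure D3:**
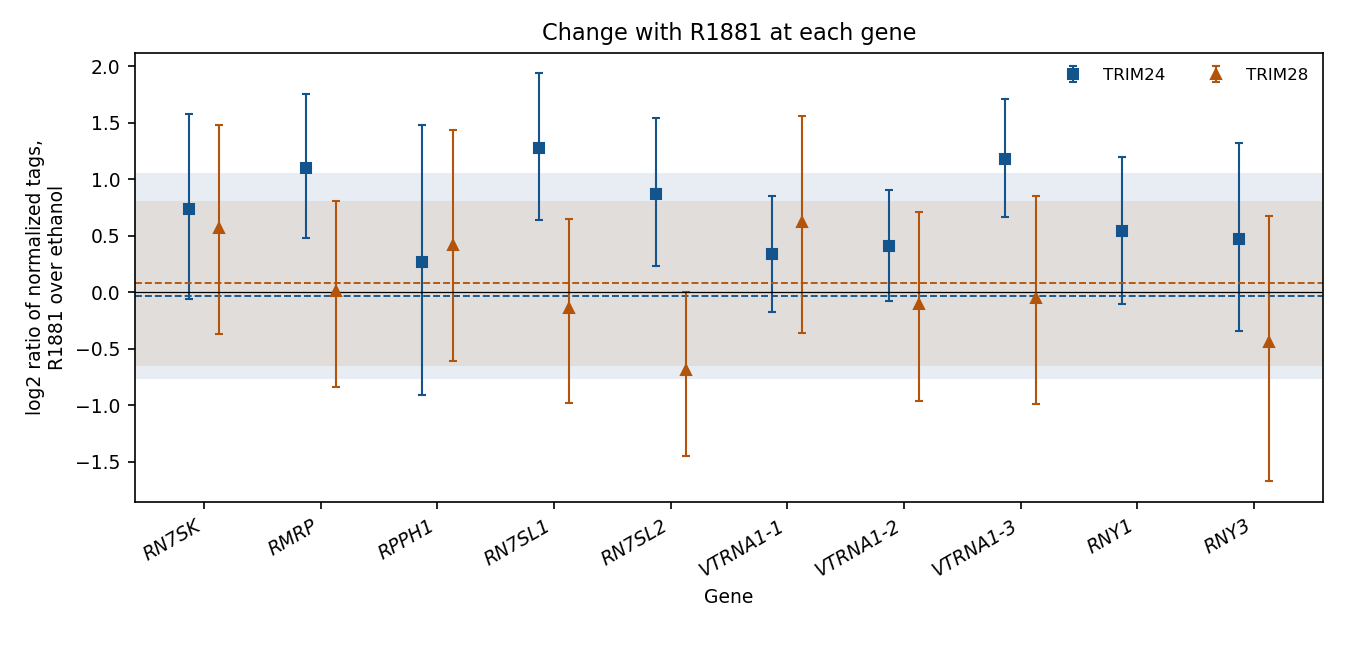
Log2 ratio of normalized tags, R1881 over ethanol, at each gene for TRIM24 and TRIM28, with 95% intervals from the exact binomial share of tags. Dashed lines and shaded bands give the median and the 5th to 95th percentiles of all overlapping site pairs of the same protein. The TRIM24 points are all above 0, and the TRIM28 points lie on both sides of it.

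TRIM24 exceeded TRIM28 at the members. In ethanol it was higher at 10 of 10 members, compared with 68.3% of 3339 overlapping pairs. It was higher by at least 1.5-fold at 8 of them, compared with 33.4% of the pairs. The median log2 ratio was 0.97 (range 0.03 at RN7SL2 to 2.5 at VTRNA1-1), and 7 intervals lay above 0. At RN7SK and RPPH1 the ethanol sites of the proteins did not overlap, so these ratios compare different places. RN7SK, with an interval of 0.01 to 1.83, is among the 8 and the 7. By fold over the local region RN7SL2 was lower in TRIM24, with a log2 ratio of -0.25, and 8 of 10 members exceeded the median of all pairs. In R1881 TRIM24 was higher at 9 of 9 members, compared with 58.5% of 4694 pairs. It was higher by at least 1.5-fold at 8 of them, compared with 19.2% of the pairs. The median log2 ratio was 1.96 (range 0.15 at RPPH1 to 2.88 at VTRNA1-3), and 8 intervals lay above 0. The medians over all pairs were 0.31 and 0.14. The ethanol and R1881 comparisons with TRIM28 use the same TRIM24 libraries as the comparison above, so they are not independent of it.

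Clonal fold change is the measure of the caller for tags that share a position. It lay between 0.82 and 1.11 at the 39 strongest sites, and the list medians lay between 0.89 and 0.96. The authors' calling considered at most 1 tag per bp and allowed a clonal fold change of at most 2. A listed site could therefore hardly stand apart in it, and these values cannot show whether tags stacked at these genes. The fold over the surrounding 10 kb was between 6.57 and 86.4.

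Of 27 further Pol III genes, 24 had a site in TRIM24 ethanol, 25 in TRIM24 R1881, 8 in TRIM28 ethanol and 13 in TRIM28 R1881. That was 88.9%, 92.6%, 29.6% and 48.1%, against 6.9%, 11.8%, 35.6% and 26.2% of all annotated genes. In TRIM28 ethanol their share of 29.6% was below the 35.6% of all annotated genes. With the 5S copies named below left out, 7 of 10 genes had a site in that library. Of the annotated small RNA genes, 6.27% had a site there. Of the 27 genes, 17 are annotated copies of the 5S ribosomal RNA gene on chromosome 1. How like the copies are and how reads were divided among them was not measured here, so their values may not be independent and no copy is ranked. The 5S genes all had TRIM24 sites, of 31.9 to 56.0 normalized tags in ethanol and 75.3 to 111.8 in R1881, among them RNA5S12 (111.8), RNA5S8 (110.2) and RNA5S10 (108.7). TRIM28 sites were listed at 1 of them in ethanol and 7 in R1881, with local folds of 4.08 to 7.54, where 4.0 was required. Without the 5S genes, the counts were 7, 8, 7 and 6 of 10 in TRIM24 ethanol, TRIM24 R1881, TRIM28 ethanol and TRIM28 R1881.

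Among the other 10 of these genes, RNY4, RNY5, RNU6-1, RNU6-2, RNU6-9 and RNU6ATAC had a site in all 4 lists, as had RNA5S1 of the 5S genes. RNY5 had 24.1 normalized tags in TRIM24 ethanol, 40.4 in TRIM24 R1881, 10.3 in TRIM28 ethanol and 10.5 in TRIM28 R1881. RNU6-1, which encodes the U6 RNA of the spliceosome, had 65.5, 52.8, 10.7 and 9.8. Unlike at the members, TRIM24 was thus not higher with R1881 at every one of these genes. It was higher at 5 and lower at 2 of the 7 with both sites, with a median log2 ratio of 0.32, against 1.17 at the 5S genes, where it was higher at 17 of 17.

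The small RNA genes transcribed by Pol II had weaker TRIM24 sites. Of 23 such genes, 14 had a site in TRIM24 ethanol, 12 in TRIM24 R1881, 20 in TRIM28 ethanol and 19 in TRIM28 R1881. That was 60.9%, 52.2%, 87.0% and 82.6%, against 6.9%, 11.8%, 35.6% and 26.2% of all annotated genes. RNU1-1, RNU1-4, RNVU1-7, RNVU1-18, RNU2-2P, SNORD3A and SNORD3C had one in all 4 lists. The strongest were RNU2-2P (37.0, 38.8, 41.8 and 42.9 normalized tags), RNVU1-18 (19.8, 14.7, 25.5 and 23.2) and SNORD118 (20.7 in TRIM24 ethanol and 9.1 in TRIM28 R1881). TRIM24 was higher with R1881 at 3 and lower at 4 of the 7 with both sites. The members differed from these genes in that the median log2 ratio of TRIM24 over TRIM28 was 0.23 in ethanol and 0.15 in R1881 here, a difference given as a description.

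Annotated pseudogenes of the members rarely had a site. Of 1196 pseudogenes of 7SK, 7SL, Y RNA, RMRP and RNase P RNA, 4 had one in TRIM24 ethanol, 9 in TRIM24 R1881, 40 in TRIM28 ethanol and 22 in TRIM28 R1881. That was 0.334%, 0.753%, 3.34% and 1.84%, against 6.9%, 11.8%, 35.6% and 26.2% of all annotated genes. The annotated small RNA genes were closer, with 1.56%, 2.17%, 6.27% and 4.22%. RN7SL4P (12.9, 20.2, 9.5 and 14.1 normalized tags) and RN7SL521P (7.8, 10.9, 8.0 and 11.9) had one in all 4 lists. RN7SL5P reached 24.1 in TRIM24 R1881. RN7SL122P reached 21.8 in TRIM28 R1881, at a site centred 1198 bp after its start. None of the 52 Y RNA pseudogenes had a site in any library.

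Genes of proteins that make or bind these RNAs were counted against all protein-coding genes, of which 14.6%, 25.4%, 68.4% and 52.0% had a site in TRIM24 ethanol, TRIM24 R1881, TRIM28 ethanol and TRIM28 R1881. Of 30 genes of the Pol III machinery, 9, 15, 30 and 22 had a site in the same order (30%, 50%, 100% and 73.3%). POLR3E, a Pol III subunit, had 69.8, 97.0, 14.7 and 9.8 normalized tags, with centres at positions -259 to -151 bp from the start. BRF1, GTF3C3, SNAPC3 and MAF1 also had a site in all 4 lists, of at most 19.0 normalized tags. A site anywhere along a gene counted, so a long gene could collect sites at different places. The BRF1 sites were centred 14705 to 67246 bp after the start, and those of MAF1 at positions -815 to 452 bp. Of 25 genes of proteins bound to the member RNAs, 2, 8, 19 and 13 had a site (8.0%, 32.0%, 76.0% and 52.0%), near the share of protein-coding genes in the TRIM28 libraries, and 0 had one in all 4 lists. Of 83 ribosomal protein genes, 22, 35, 70 and 46 had a site (26.5%, 42.2%, 84.3% and 55.4%). The sites of RPS29, which had one in all 4 lists, were those of RN7SL1.

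**Figure D4:**
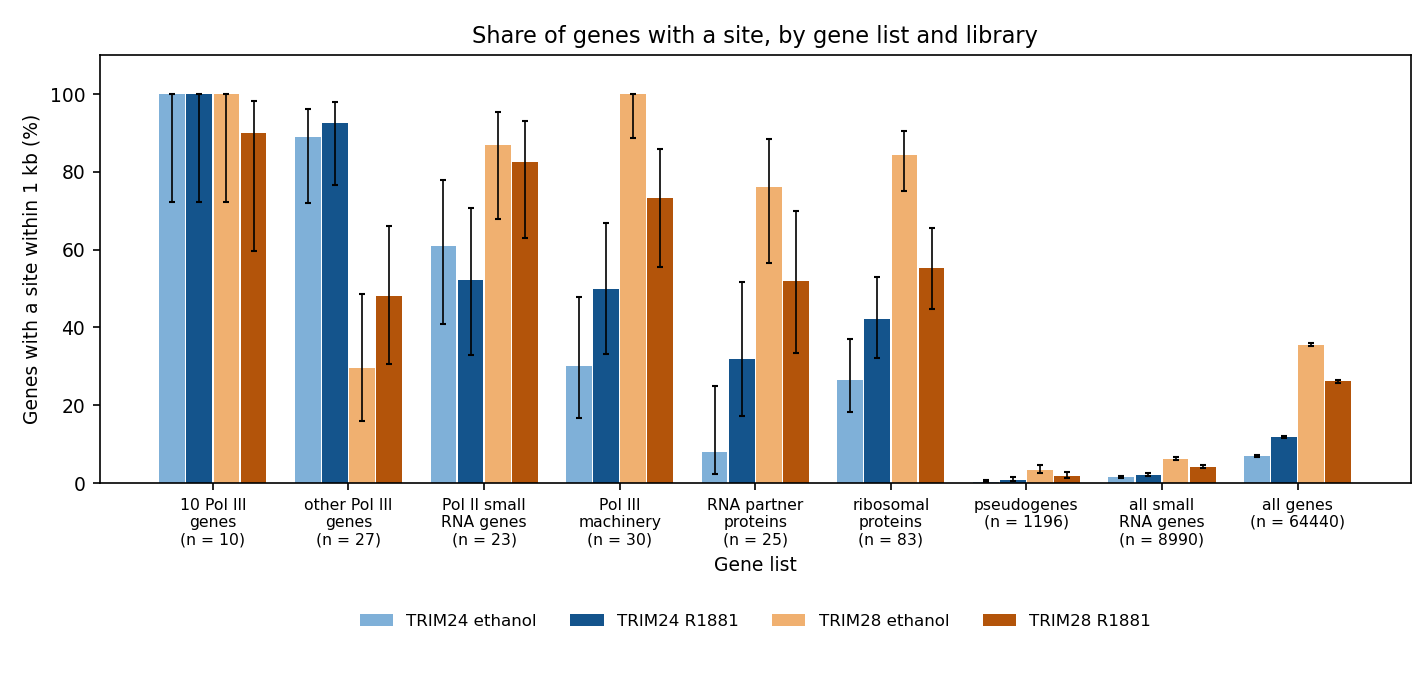
Percent of genes with a site within 1 kb in each of the 4 libraries, for the 10 Pol III genes, 7 other lists and all annotated genes, with Wilson 95% intervals. The 10 genes have a site in 90% to 100% of cases in every library, and the further Pol III genes in 88.9% and 92.6% for TRIM24 and in 29.6% and 48.1% for TRIM28. Of all annotated genes, 6.9% and 11.8% have one for TRIM24 and 35.6% and 26.2% for TRIM28.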

How the data were processed

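HOMER site lists of 4 LNCaP ChIP-seq libraries were used, 1 per group. Per the submitters' processing notes the reads were aligned to hg19 with BWA 0.6.1, and the authors called sites with HOMER 4.1. Per the file headers a site needed a false discovery rate of 0.001, a fold over the surrounding 10 kb of at least 4.0 with a p-value of at most 1e-04, and a clonal fold change of at most 2.0. At most 1.0 tags per bp were considered. The deposited normalized tag count is a signal per 10000000 tags. The deposited findPeaks score, local fold, local p-value and focus ratio (a fraction) were read as given. The deposited signal converted to whole tags at 100% of sites (tolerance at most 0.126 tags), which gave the exact Poisson intervals. The minimum of the headers (9, 9, 12 and 9 tags) held for the score, and sites had as few as 7, 7, 10 and 8 tags by the normalized count.

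Gene positions came from GENCODE release 44 on GRCh37. The annotation used here placed 8 members by symbol. RPPH1 and RN7SL1 were placed by BLAST 2.17.0, RPPH1 by a match of RPPH1-3P (77.9% over 289 bases, so its ends are approximate) and RN7SL1 by one of RN7SL2 (98.7% over 297 bases). The strongest site of each member was used, and on a tie the one nearest the start. Log2 ratios have intervals from the exact binomial share of tags. Overlap meant at least 1 shared base. The scripts were tested on simulated lists and ran on pandas 2.3.3, numpy 2.4.6, samtools 1.23.1 and scipy 1.17.1 under Python 3.11.15. The text names all members, genes of the other lists with a site in all 4 lists (of the ribosomal protein genes only RPS29, as some items are not reported here), and the 3 strongest genes of each small RNA list. Members and lists were chosen with earlier results of these data known. Of the lists, 6 Pol II small RNA genes and 1 partner gene were not placed and are not used here. Alternatives changed the window, the strength measure, the sites kept and the genes counted.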

Additional observations from a re-analysis of the deposited data

Results flagged for a closer look

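At 5 members the TRIM24 signal was higher with R1881 while the TRIM28 signal was lower. TRIM24 was higher at all 10 members, so the sign of the TRIM28 ratio decided this count. Of all overlapping pairs, 45.9% of 2488 were higher with R1881 in TRIM24 and 56.7% of 21637 in TRIM28. No TRIM28 interval of a member lay above or below 0, and the TRIM24 intervals of VTRNA1-2 and RNY3 included 0. The TRIM28 sites of VTRNA1-3 did not overlap between the libraries. RN7SL1 and RN7SL2, near copies of each other, are both among the 5 and may not be independent. The log2 ratios of R1881 over ethanol were 1.28 for TRIM24 and -0.14 for TRIM28 at RN7SL1, 0.87 and -0.69 at RN7SL2, 0.41 and -0.1 at VTRNA1-2, 1.18 and -0.05 at VTRNA1-3, and 0.47 and -0.44 at RNY3. By fold over the local region the TRIM28 ratio was 0.05 at VTRNA1-2 and 0.07 at VTRNA1-3, so that 3 of these members kept opposite directions. With 1 library per group the difference between the proteins was not tested. The TRIM28 ethanol library held 25145171 tags and the TRIM28 R1881 library 14231181, and the part of this depth gap in the TRIM28 ratios was not tested.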

How the results depend on the processing

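Windows of 500 bp, 2 kb and 5 kb, overlap with the gene, distance from the start, a common minimum of 7.75 normalized tags, the stronger part of each list and, added after seeing the data, the 8 members placed by symbol kept the counts of members within 1.5-fold. With the strongest 5232 sites of each list, 5 members kept a site in TRIM28 ethanol and 5 in all 4 lists, since RN7SK, RPPH1, VTRNA1-1, RNY1 and RNY3 lost theirs in that library. By fold over the local region, strength over the list median was 1.62 in TRIM24 ethanol and 3.47 in TRIM24 R1881, and the median TRIM28 log2 ratio turned to 0.07, with 6 of 9 members higher in place of 4. Of the comparison of TRIM24 with TRIM28, alternatives added after seeing the data gave 9 and 9 members higher by local fold and 8 and 8 after centring, in ethanol and R1881. The median percentile moved to 93.8 (TRIM24 ethanol) and 97.3 (TRIM24 R1881) among sites at gene starts and to 97.5 (TRIM24 R1881) by fold. The causes of these shifts were not tested. In the order TRIM24 ethanol, TRIM24 R1881, TRIM28 ethanol and TRIM28 R1881, the share of genes with a site was 14.6%, 25.4%, 68.4% and 52.0% of protein-coding genes, 1.56%, 2.17%, 6.27% and 4.22% of small RNA genes, 3.83%, 6.45%, 21.4% and 12.9% counted from the start, and 6.62%, 9.8%, 16.7% and 14.2% at the common minimum. The TRIM24 median log2 ratio stayed above 0 under every alternative run. No paired analysis was possible because each group held 1 library, and no replicate could be left out. Depth limits the weakest members, as RPPH1 rested on 12 tags in TRIM24 ethanol and RNY3 on 10 in TRIM28 R1881.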
